A study of Oryza sativa with 12 samples.

Results

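NP1 (LOC_Os10g38050), STRL2 (LOC_Os03g15710) and CER1 (LOC_Os02g40784) are 3 rice genes of the pollen wall and the anther surface. They were taken by locus identifier from the 7087 genes listed in either of 2 deposited tables, 1 for anther stage 10 and 1 for anther stage 11. The stage 10 table held all 3 of them and the stage 11 table held CER1, so NP1 and STRL2 at stage 11 were not analysed here. The symbols come with the choice of loci and from recall of published assignments, and no gene table used here pairs them with these identifiers.

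Poly(A) RNA was sequenced from whole anthers of Oryza sativa, in 3 biological replicates each of wild-type plants at stage 10, nup1 mutants at stage 10, wild-type plants at stage 11 and nup1 mutants at stage 11, 12 libraries in all. The labels name neither the cultivar nor the locus mutated in nup1 and mention no treatment, so no targeted gene could be checked. Per its title, the series links a burst of oxidants to lost Ubisch bodies and sterile pollen. Levels are FPKM, fragment counts divided by transcript length and by library size, so levels of different genes can be set side by side.

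The exine is the outer wall of the pollen grain and is built from sporopollenin, a polymer of oxidised fatty acids and phenolics. Its precursors are made in the tapetum, the innermost layer of the anther wall, and carried to the microspores, in grasses with the help of Ubisch bodies on the inner face of the tapetum. The anther surface is sealed by a cuticle of cutin and wax. NP1 encodes a glucose-methanol-choline oxidoreductase needed for exine formation and male fertility in rice. STRL2 encodes an atypical strictosidine synthase-like protein, also needed for exine and Ubisch bodies. CER1 encodes a homologue of the Arabidopsis enzyme that forms very-long-chain alkanes, a main part of wax.

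The tables hold genes that the authors had already called as different between the genotypes, so a second fit sets each change against the spread of the replicates and does not test those calls independently. With limma on log2(FPKM + 1), a gene passed at an adjusted p under 0.01 with a fold over 2. At stage 10, 39.8% of the 3358 genes fitted passed as higher in nup1 and 33.1% as lower, and 94.9% had libraries of the 2 genotypes that did not overlap. At stage 11, 26.3% of 4992 passed as higher and 46.0% as lower, and 94.6% did not overlap. Of the genes that passed, the share lower was 45.4% at stage 10 and 63.6% at stage 11. Centring each library on the median of the listed genes turned these shares to 57.8% and 40.0%, and quantile normalization to 53.8% and 39.0%. The median change of all genes fitted moved with centring from 0.85 to 0.66 at stage 10 and from -0.98 to -0.54 at stage 11. Wild-type replicate 2 stood apart at stage 10, where 8.43% of its genes lay more than 2-fold away from each of the other replicates. At stage 11 nup1 replicate 1 did, with 7.63%. As a check of tissue in wild type, the tapetal genes RTS and OsC6 averaged 4557 ± 1985 and 6991 ± 395 FPKM (SD, n = 3) at stage 10. In nup1 they averaged 15.2 ± 21.8 and 807 ± 122 FPKM, so this check does not cover the nup1 libraries. Other pollen wall genes went the other way at stage 10. Of 17 listed there, 10 passed as higher in nup1 and 4, RTS and OsC6 among them, as lower. In wild type at stage 11 RTS and OsC6 averaged 3229 ± 615 and 630 ± 119 FPKM (SD, n = 3).

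At stage 10, NP1 and STRL2 rose in nup1 and CER1 fell, and all 3 passed the test in a table where 72.9% of genes did. The libraries of the 2 genotypes did not overlap for any of the 3 genes, as for 94.9% of the genes fitted. An exact two-sided permutation test of each gene gave p = 0.1, the smallest value that 3 libraries against 3 allow. Groups that do not overlap always give this value, so the test adds nothing to the lack of overlap.

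**Figure D1:**
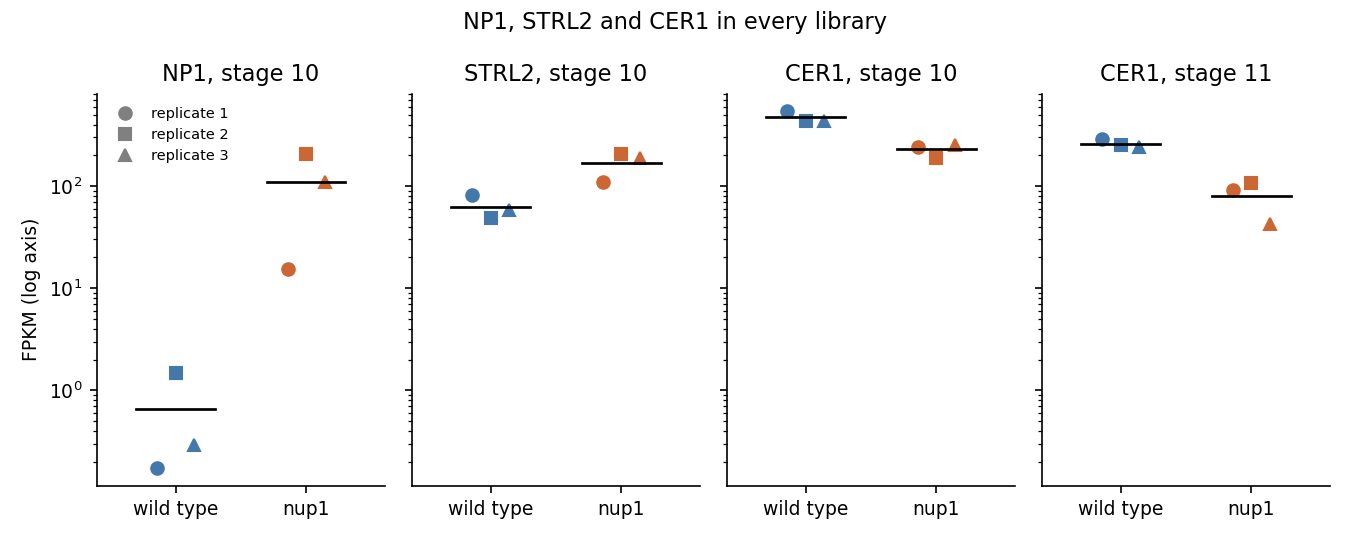
FPKM of NP1, STRL2 and CER1 in every library, on a log axis, by genotype and stage, with 1 marker shape per replicate and a line at each mean. NP1 lay between 0.174 and 1.48 FPKM in wild type and between 15.3 and 208 in nup1, while the stage 10 levels of STRL2 and CER1 were separated by smaller gaps.

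NP1, the oxidoreductase, was low in wild-type anthers at stage 10, at 0.174, 1.48 and 0.291 FPKM in replicates 1 to 3. In nup1 it stood at 15.3, 208 and 109 FPKM. Every nup1 library was at least 10.3-fold above the highest wild-type library, and nup1 replicate 1 was far below the other nup1 libraries. The mean went from 0.649 ± 0.725 to 111 ± 96.3 FPKM (SD, n = 3), a log2 change of 5.54 ± 0.80 SE (limma, adjusted p = 0.000382). Of the 1889 genes with a positive change, 16 had a larger one.

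The size of that rise moved with the libraries used and with the pseudocount. It was 6.61 without nup1 replicate 1, 4.77 without nup1 replicate 2 and 5.87 without wild-type replicate 2, and it was 7.00 with a pseudocount of 0.1 FPKM and 3.82 with 5 FPKM. The call held in each of these fits. NP1 also varied more among the nup1 libraries than almost any other gene. Its SD on the log2 scale was 1.91 there, against a median of 0.25 over all genes fitted, and 4 of the 3358 genes had a larger one.

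STRL2, the strictosidine synthase-like protein, was already well expressed in wild type. It stood at 81.6, 48.6 and 58.7 FPKM in wild-type replicates 1 to 3 and at 110, 208 and 188 FPKM in nup1. The groups did not overlap, as for 94.9% of genes, but the lowest nup1 library was just 1.35-fold above the highest wild-type library. The mean rose from 63.0 ± 16.9 to 169 ± 51.3 FPKM (SD, n = 3), 2.68-fold, a log2 change of 1.39 ± 0.32 SE (limma, adjusted p = 0.00343). The call ended without nup1 replicate 2 (change 1.21, adjusted p = 0.0141) and without nup1 replicate 3 (1.29, adjusted p = 0.016). It held with quantile normalization (1.55, limma adjusted p = 0.00205). Without wild-type replicate 2 (1.22, limma adjusted p = 0.00898) and with median centring (1.19, limma adjusted p = 0.00877) it held narrowly. The rise was of ordinary size in this table, as 44.8% of the genes with a positive change had a larger one.

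CER1, the alkane-forming enzyme, was the most abundant of the 3 genes in wild type and ranked 48 among the 3358 genes fitted. At stage 10 it stood at 541, 438 and 436 FPKM in wild-type replicates 1 to 3 and at 243, 190 and 254 FPKM in nup1. The lowest wild-type library was 1.71-fold above the highest nup1 library. The mean fell from 472 ± 60.0 to 229 ± 34.2 FPKM (SD, n = 3), to 48.5% of wild type, a log2 change of -1.04 ± 0.26 SE (limma, adjusted p = 0.00461). That change lay just past the fold threshold. Leaving out single libraries ended the call in 4 of 6 fits, with changes of -0.94 without wild-type replicate 1, and -1.09, -0.92 and -1.12 without nup1 replicates 1, 2 and 3. It also ended under quantile normalization (-0.96, adjusted p = 0.0128). Without wild-type replicate 2 the change was -1.09 and the call held. Among the 1469 genes with a negative change, 75.1% had a larger one.

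At stage 11 CER1 fell again in nup1. The wild-type libraries stood at 290, 252 and 239 FPKM and the nup1 libraries at 91.0, 107 and 42.6 FPKM. The groups did not overlap, as for 94.6% of genes at this stage, and nup1 replicate 3 was the lowest of the 6. The mean went from 261 ± 26.4 to 80.3 ± 33.6 FPKM (SD, n = 3), to 30.8% of wild type, a log2 change of -1.78 ± 0.33 SE (limma, adjusted p = 0.00168). This call, of a kind that 46.0% of genes had, held with each of the 6 libraries left out (-2.04 to -1.39), with median centring (-1.34) and with quantile normalization (-1.22). Without nup1 replicate 1, which stood apart at this stage, the change was -1.92. The exact permutation test again gave p = 0.1, as it must for groups that do not overlap.

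**Figure D2:**
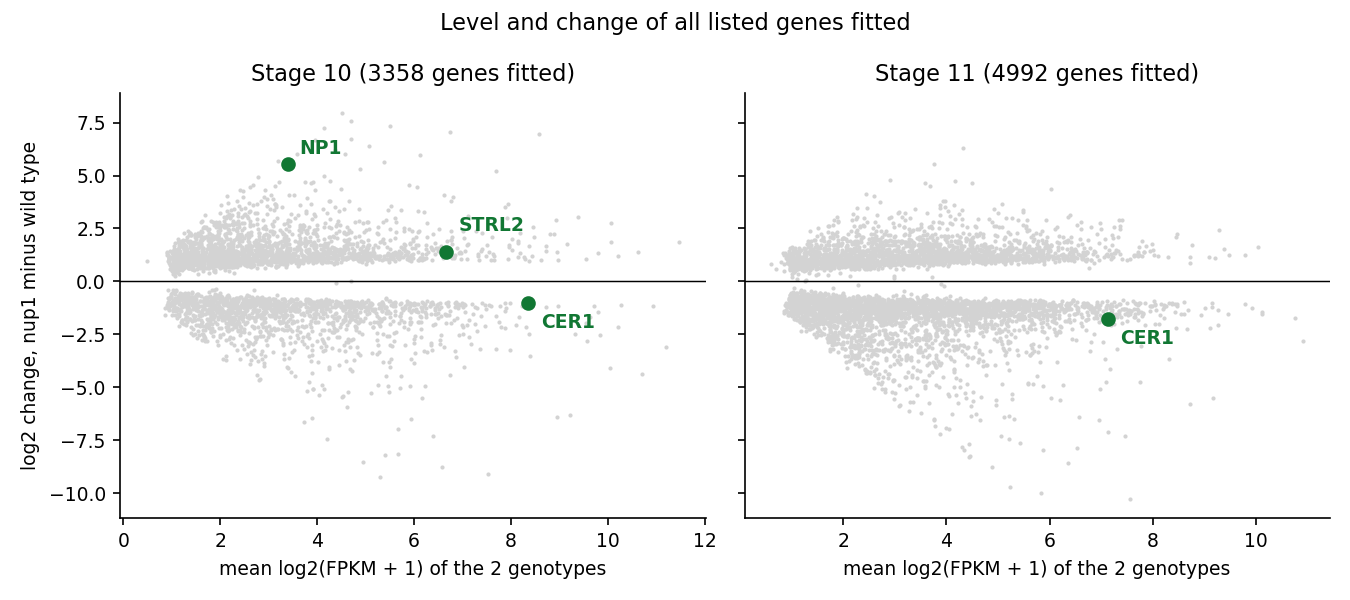
Mean level on the log2(FPKM + 1) scale against the log2 change in nup1 for every listed gene fitted, 3358 at stage 10 and 4992 at stage 11, with NP1, STRL2 and CER1 in green. NP1 lay among the largest rises at 5.54, while STRL2 (1.39) and CER1 (-1.04 and -1.78) were abundant genes with changes common in these tables; the empty band around 0 follows from the authors' selection.

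The fall of CER1 was larger at stage 11 than at stage 10 by point estimate, but the difference did not pass. It was -0.74 ± 0.46 SE on the log2 scale, with a 95% interval of -1.75 to 0.26 (limma interaction, adjusted p = 0.284). In the same fit 21.4% of 1436 genes passed. Quantile normalization turned its sign (0.054), and without nup1 replicate 3 of stage 11 it was -0.34. The 4 group means ran from nup1 at stage 11, over nup1 at stage 10 and wild type at stage 11, to wild type at stage 10. The middle groups overlapped, at 190 to 254 and 239 to 290 FPKM, and nothing used here shows that the tables were normalized together, so levels were not tested between stages.

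Ratios between the genes within a library do not depend on how that library was scaled, and 3 were computed at stage 10 after the values were seen. The ratio of STRL2 to CER1 was 0.151, 0.111 and 0.135 in wild-type replicates 1 to 3 and 0.455, 1.09 and 0.739 in nup1. It was thus higher in every nup1 library, 5.46-fold by geometric means. The ratio of NP1 to STRL2 was 0.00213, 0.0305 and 0.00495 in wild type and 0.139, 1.002 and 0.582 in nup1, 63.1-fold apart by geometric means. That fold was 111 without nup1 replicate 1, 41.5 without nup1 replicate 2, 133 without wild-type replicate 2 and 35.2 without wild-type replicate 1, so its size rests on single libraries. In nup1 replicate 2 NP1 thus stood level with STRL2 and at 1.09 times CER1, where the wild-type ratios of NP1 to CER1 ran from 0.000321 to 0.00339. The ratios were not tested, since that of NP1 or STRL2 to CER1 separates the genotypes wherever the genes do.

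**Figure D3:**
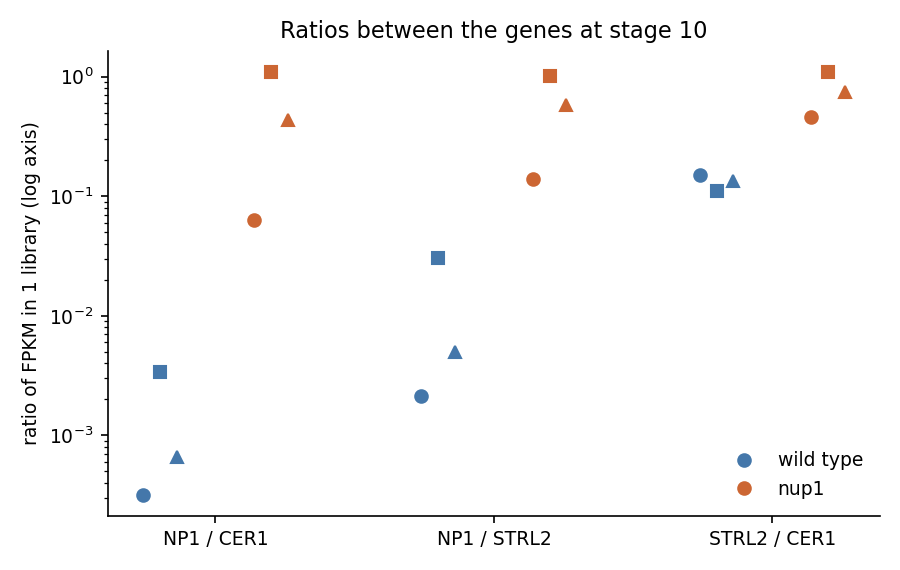
Ratios of FPKM between NP1, STRL2 and CER1 within each stage 10 library, on a log axis, with wild type in blue, nup1 in orange and 1 marker shape per replicate. Every nup1 library lies above every wild-type library for all 3 ratios, and STRL2 to CER1 ran from 0.111 to 0.151 in wild type and from 0.455 to 1.09 in nup1.

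The 3 genes belong to a list of 20 pollen wall and cuticle genes, of which 17 were listed at stage 10, 11 higher and 6 lower. Past the threshold were 10 higher, NP1 and STRL2 among them, and 4 lower, CER1 among them, in a table where 39.8% of all genes passed as higher and 33.1% as lower. The median change over the 17 was 1.81, beside 0.85 over all genes fitted. PKS2, a polyketide synthase for sporopollenin, had the largest rise (7.27 ± 0.33 SE), NP1 was next, and TKPR1, a tetraketide reductase of the same pathway, followed (4.35 ± 0.36). RTS, a tapetal gene needed for fertility, had the largest fall (-9.08 ± 0.89), before the lipid transfer protein OsC6 (-3.12 ± 0.29) and the Ubisch body protein RAFTIN1 (-2.56 ± 0.29). STRL2 thus had the smallest rise and CER1 the smallest fall among the list members that passed. The transporters ABCG26 (-0.96 ± 0.24) and ABCG3 (-1.19 ± 0.39) and the acyltransferase GPAT3 (0.88 ± 0.24) did not pass.

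Only 8 of the 20 appeared in the stage 11 table, 1 of them higher and 7 lower, and the 5 that passed were all lower. Over all genes of that stage 72.3% passed, 26.3% as higher and 46.0% as lower. The median change over the 8 was -1.67, beside -0.98 over all genes fitted. CER1 had the third largest fall of the 5, after RTS (-5.81 ± 0.71) and ABCG26 (-2.57 ± 0.16). OsC6 (-3.03 ± 1.15) and the hydroxylase genes CYP703A3 (-1.47 ± 0.44) and CYP704B2 (2.30 ± 1.35) did not pass. CYP704B2, the 1 listed as higher, stood at 90.6 FPKM in nup1 replicate 1 against 0.973 and 1.45 in the other nup1 libraries. Among tapetum regulators, the bHLH factors TDR and EAT1 changed by -1.58 ± 0.32 and -3.35 ± 0.58 at stage 11 (limma, adjusted p = 0.00245 and 0.0013). The PHD-finger regulator PTC1, listed at stage 10, rose from 1.12 ± 0.72 to 29.0 ± 3.6 FPKM (log2 change 3.88 ± 0.31). The other regulator listed at stage 10, the secreted-protein gene TDL1A, was called lower by the authors but did not pass, at 4.96 ± 4.06 FPKM in wild type and 2.21 ± 0.75 in nup1 (-0.71 ± 0.43), and its libraries overlapped.

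**Figure D4:**
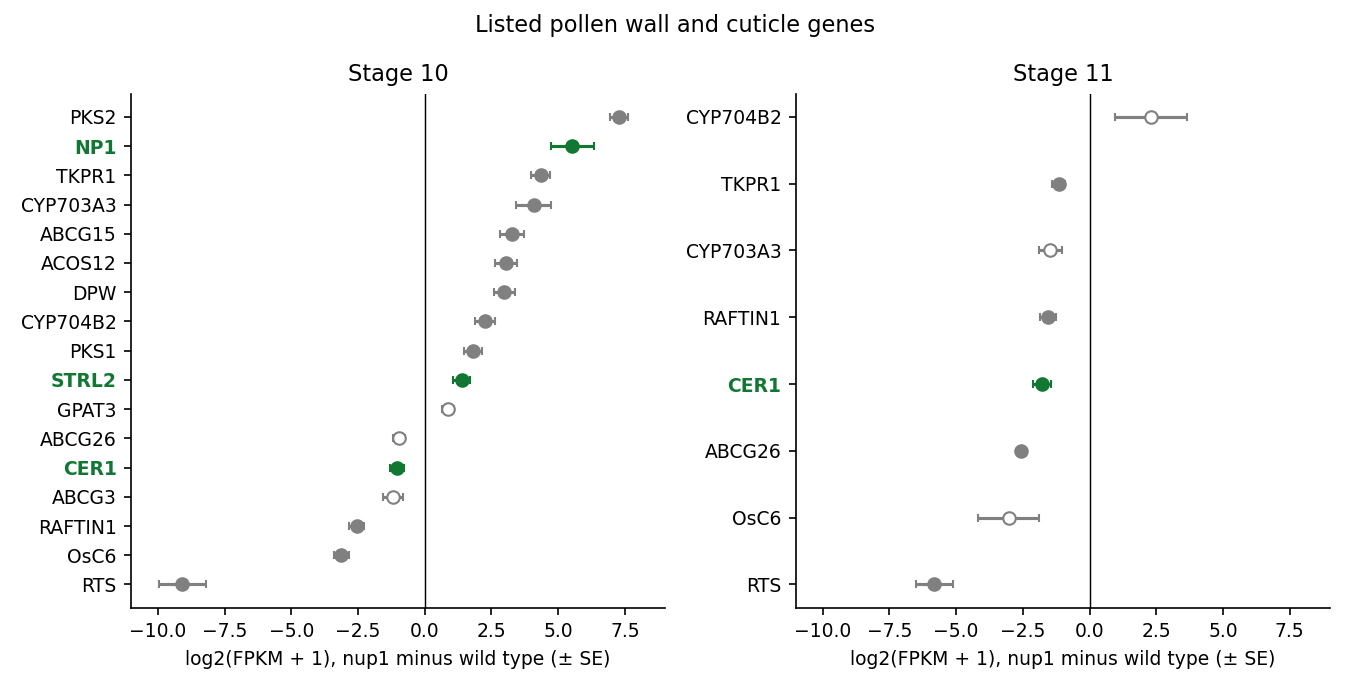
Log2 change in nup1 with its SE for every listed gene of the pollen wall and cuticle list, 17 at stage 10 and 8 at stage 11, with NP1, STRL2 and CER1 in green and open points for genes that did not pass. At stage 10 NP1 and STRL2 stand with the rises (5.54 and 1.39) and CER1 with the falls (-1.04), and CER1 was at -1.78 at stage 11.

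NP1 and STRL2 ordered the 3 nup1 libraries of stage 10 alike, with replicate 1 lowest, replicate 3 next and replicate 2 highest. CER1 had its lowest nup1 level in replicate 2, where NP1 and STRL2 were highest. That order held in 21.3% of the 1338 genes that passed as higher and in 6 of the 10 pollen wall genes that did. Replicate 1 was lowest for all 10 pollen wall genes that passed as higher, where it was lowest in 39.3% of the 1338. For GPAT3, listed as higher but not past the threshold, replicate 1 was the highest nup1 library, at 4.93 FPKM against 3.67 and 3.87. The size of that gap differed between genes. Replicate 1 was at 13.8% of the nup1 mean for NP1, 54.6% for TKPR1, 60.8% for PKS2 and 65.5% for STRL2, and at 91.2% for the transporter ABCG15. The order was noticed after the values were seen and was not tested. These genes share the 3 libraries, so they are not separate evidence.

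**Figure D5:**
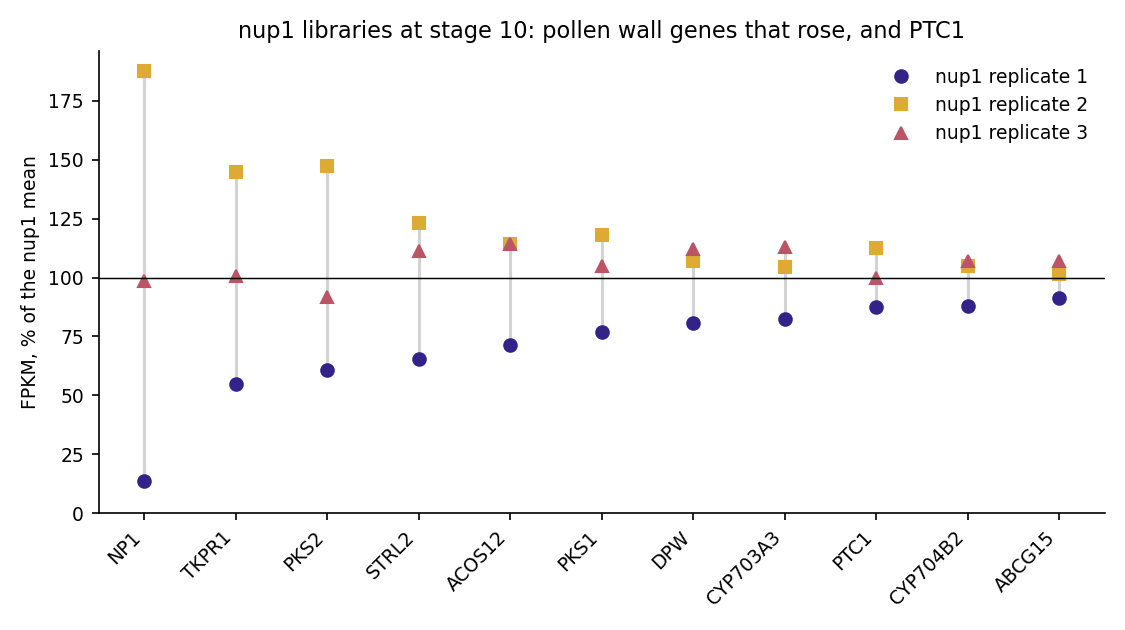
FPKM of each nup1 library at stage 10 as a percentage of the mean of the 3, for the 10 pollen wall genes that passed as higher and for PTC1, ordered by replicate 1. Replicate 1 was lowest for each gene shown, at 13.8% for NP1 and 65.5% for STRL2, and replicate 2 was highest for NP1 at 188%.

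Genes with a pattern like each of the 3 were sought over the 6 libraries of a table, by the root mean square difference between gene-centred log2(FPKM + 1) values. The closest to NP1 was LOC_Os01g32670, at 0.60, which went from 5.37 ± 2.95 to 329 ± 166 FPKM (SD, n = 3). Within the pollen wall list TKPR1 was closest to NP1, at 0.94, and ranked 5 among all genes. STRL2 had matches at smaller distances, LOC_Os11g39780 at 0.07 (5.17 ± 1.23 to 14.4 ± 4.5 FPKM) being the nearest. The distance grows with the size of a gene's change and spread, so distances for NP1, STRL2 and CER1 cannot be ranked against each other. The nearest to CER1 were LOC_Os01g48910 at stage 10, at 0.03 (84.4 ± 9.1 to 41.1 ± 6.0 FPKM), and LOC_Os01g12660 at stage 11, at 0.12 (10.3 ± 1.7 to 2.59 ± 1.25 FPKM). The files give these loci no names. All such matches share the genotype difference and the same libraries.

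Markers of other cells were listed as well. All listed genes divide into 1942 higher and 1511 lower at stage 10, and 2085 and 2999 at stage 11. Of 4 genes of late pollen and its sugar supply 3 were listed at each stage, all lower, with summed levels of 155 to 424 FPKM in wild type and 14.9 to 25.5 in nup1 at stage 10, and 552 to 616 and 31.2 to 44.8 at stage 11. Of 8 tapetum regulators 2 were listed at stage 10, PTC1 higher and TDL1A lower, and their sum of 3.92 to 9.94 FPKM in wild type and 26.9 to 34.6 in nup1 was mostly PTC1 in nup1. At stage 11 there were 4, all lower, at 138 to 173 and 21.9 to 59.7 FPKM. Of 3 meiotic germ cell genes 1 was listed at stage 10, at 4.49 to 5.94 and 2.00 to 2.79 FPKM, and 2 at stage 11, at 13.5 to 17.5 and 2.72 to 4.42. Green tissue genes had 3 of 6 listed at each stage. At stage 10, 1 was higher and 2 were lower, and their sums overlapped, at 205 to 367 FPKM in wild type and 265 to 342 in nup1. At stage 11 all 3 were lower, at 701 to 1324 and 407 to 608 FPKM. The ovule gene MADS13, the single listed gene of 3 for other floral organs, was listed at stage 11, at 24.9 to 37.7 and 2.17 to 10.1 FPKM. The listed marker at exactly 0 in a library was the invertase gene INV4, in nup1 replicate 3 of stage 11. The part of these differences in the changes of NP1, STRL2 and CER1 was not tested, and in whole anthers fewer cells of a type and less RNA per cell cannot be told apart.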

How the data were processed

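FPKM values of both stages, with the direction called for each gene, were deposited by the authors as a table for each stage. Per the series design text, trimmed reads were aligned by HISAT2 against the MSU rice genome (release 7), Cufflinks gave the expression values, and the authors' calls needed a false discovery rate below 0.01 together with a fold above 2. Versions of these tools were not stated. The tables list 3453 genes at stage 10 and 5084 at stage 11.

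Each table was fitted separately on log2(FPKM + 1) by limma (version 3.58.1, R 4.3.3) using the trended prior variance. Genes averaging at least 1 FPKM entered the fit, and p-values were adjusted over all of them by the Benjamini-Hochberg method. The interaction used the 1436 genes of both tables past the same filter, at an adjusted p under 0.01. The fit was tried on simulated data with the wild-type spread in both groups and most genes unchanged. The real tables hold only genes already called, so that trial does not vouch for the calls here. A fold on this scale understates changes of low genes.

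Sequencing depth is unknown. Among low values, at most 37.7% of the ratios between libraries fell on steps of small whole numbers, so no depth was recovered. Up to 184 genes per library are listed at 0.

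The genes and lists were chosen with earlier results of these data known. Of 44 listed symbols, entered from recall, 20 had that symbol on the same chromosome in the RefSeq gene table (assembly ASM3414082v1) and 24 had none there. Named genes were the 3 genes, the nearest matches to each, the 3 largest rises and falls of the pollen wall list that passed, and TDR, EAT1 and PTC1. List members that did not pass, and ABCG15, ACOS12, DPW, PKS1, CYP704B2, TDL1A, CYP703A3, MADS13, INV4, MST8 and CSA, were named after their values were seen. Same-numbered libraries of the 2 genotypes did not deviate together in every pair, which cannot decide whether they share a batch. No pairing was used in the main fits.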

Additional observations from a re-analysis of the deposited data

How the results depend on the processing

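Alternatives, planned except for the ratios without single libraries, which were added after seeing the data, were pseudocounts of 0.1 and 5 FPKM, no filter on low values, median centring, quantile normalization, no mean-variance trend, a replicate block and each library left out in turn. NP1 at stage 10 and CER1 at stage 11 kept direction and call in all of them. The stage 10 change of STRL2 ran from 1.21 to 1.67 and that of CER1 from -1.12 to -0.92 with 1 library left out, and calls were lost in 2 and 4 of 6 such fits, which also have fewer samples. Quantile normalization ended the CER1 call at stage 10 (-0.96) and turned the sign of its difference between stages (0.054); the cause was not tested. A pseudocount of 5 FPKM lowered the count of genes past the threshold from 2449 to 1372 at stage 10 and from 3610 to 2168 at stage 11, as it shrinks the fold of low genes. With 1 library left out these counts ran from 1674 to 2587 and from 2816 to 3593.

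Deviations of same-numbered libraries correlated at 0.04, 0.25 and 0.18 at stage 10 and at -0.09, -0.23 and 0.08 at stage 11. Libraries with different numbers ran from -0.27 to 0.21 and from -0.13 to 0.24. With 3 libraries per group these values cannot decide whether same-numbered samples share a batch, and the labels give only the number. With the replicate block 2499 and 3472 genes passed, and the adjusted p was 0.0002 for NP1, 0.00706 for STRL2, 0.006 for CER1 at stage 10, 0.00223 for CER1 at stage 11 and 0.272 for its difference between stages. Replicates were described as biological. Depth is unknown, so the precision of low values such as NP1 in wild type cannot be stated.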

Other observations

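Wild-type replicate 2 at stage 10 held the highest wild-type level of NP1, at 1.48 FPKM against 0.174 and 0.291, and also of TKPR1, at 5.34 FPKM against 3.40 and 3.46. Of the 10 pollen wall genes that passed as higher at stage 10, NP1 and TKPR1 alone were highest there. The hydroxylase gene CYP703A3 was lowest there, at 5.93 FPKM against 36.9 and 50.1. So were STRL2, CYP704B2, DPW, ACOS12, PKS1 and ABCG15, while PKS2 lay between the other wild-type libraries. The 3 listed genes of late pollen and its sugar supply differed there. INV4, a cell-wall invertase gene, stood at 118 FPKM in that library against 13.6 and 6.43, and MST8 at 246 FPKM against 101 and 105. CSA, at 60.2 FPKM, lay between the other wild-type libraries, at 65.1 and 42.9.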
